A study of Mus musculus with 4 samples.

Results

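The 10 genes described here encode the enzymes, proteases, structural proteins and junction protein with which a keratinocyte builds its cornified envelope: the transglutaminases Tgm1, Tgm3 and Tgm5, the proteases Casp14 and Asprv1, the envelope proteins Ivl, Lor, Kprp and Crct1, and the corneodesmosome protein Cdsn. They were chosen by name, with earlier results of these data known, and each was read by 1 probe set that carries its symbol alone. The set thus comprises 10 of the 19938 genes named on the array and 10 of its 35556 probe sets. RNA of whole ear skin from female mice aged 8 weeks was hybridised to 4 arrays of the Affymetrix Mouse Gene 1.0 ST type. The groups were Traf6f/f mice (floxed Traf6, here f/f) left untreated, Traf6f/f mice given imiquimod (IMQ), Traf6EKO mice (epithelial Traf6 knockout, here EKO) left untreated, and Traf6EKO mice given IMQ. IMQ, a TLR7 agonist, was given in 10 mg of cream a day on the ear for 2 days. Each group holds 1 array, so no value has a replicate error and a difference between arrays carries no p-value. The series' design text gives n = 2, but no source used here says whether 2 mice were pooled, or which promoter or Cre line made the epithelial deletion.

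During terminal differentiation a keratinocyte replaces its plasma membrane with a shell of proteins joined by isopeptide bonds. Transglutaminases form these bonds, involucrin lies early under the membrane, loricrin and small proline-rich proteins reinforce the shell, and proteases trim filaggrin and finally the corneodesmosomes that hold the dead cells together. In psoriasis-like skin the early envelope genes are known to be expressed more and loricrin less. TRAF6 is an adaptor that carries signals from Toll-like, IL-1 family and IL-17 receptors.

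In f/f skin 4 of the 10 genes, all 3 transglutaminases and Casp14, reached 2-fold or more above their untreated level under IMQ (3.82% of all genes did that reached the floor, the median level of named genes, on an array compared), while Lor, Kprp, Crct1, Asprv1 and Cdsn differed by less than 1.25-fold. When each array was centred on basal keratinocyte markers, an alternative chosen after seeing the data, 2 of these 4 genes (Tgm3 and Casp14) reached 2-fold. That centring lowered all genes alike in this comparison, to a median of -0.36. In EKO skin the 10 genes were higher with IMQ by 1.01-fold to 1.95-fold as deposited, with Lor and Kprp so close to 0 that their sign turned under other scalings. In the absence of IMQ all 10 stood higher in EKO, although 6 of them turned sign with that centring, which put the median of all genes at -0.23. The levels and differences below are log2 values of the authors' RMA normalisation unless given as folds, and levels of different genes are not compared because each rests on its own probes.

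The 250 bases before the RefSeq start sites (assembly GRCm38.p6) of 5 genes are shown first, 5′ to 3′ on the gene's strand, because these genes differ in how they stood with IMQ. Capitals mark matches to the AP-1 consensus and to the TATA box, whose letters are given below the sequences. For Tgm1, which has 2 start sites in the table, the first listed is shown.
Tgm1, chr14:55713493-55713742, minus strand: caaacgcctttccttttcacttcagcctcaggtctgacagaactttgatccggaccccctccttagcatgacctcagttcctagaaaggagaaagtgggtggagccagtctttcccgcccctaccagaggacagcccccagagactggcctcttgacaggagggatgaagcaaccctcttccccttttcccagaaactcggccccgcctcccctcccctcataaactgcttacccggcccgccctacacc
Tgm3, chr2:130012090-130012339, plus strand: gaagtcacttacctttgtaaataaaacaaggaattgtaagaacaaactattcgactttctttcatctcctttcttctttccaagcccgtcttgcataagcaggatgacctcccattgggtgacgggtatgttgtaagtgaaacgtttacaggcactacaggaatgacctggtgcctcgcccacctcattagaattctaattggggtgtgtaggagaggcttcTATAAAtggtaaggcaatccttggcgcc
Casp14, chr10:78718294-78718543, minus strand: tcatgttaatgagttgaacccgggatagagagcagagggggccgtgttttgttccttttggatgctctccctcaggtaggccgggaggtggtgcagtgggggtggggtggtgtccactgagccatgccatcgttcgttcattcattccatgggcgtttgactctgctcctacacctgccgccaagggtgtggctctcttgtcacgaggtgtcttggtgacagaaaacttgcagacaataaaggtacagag
Ivl, chr3:92573736-92573985, minus strand: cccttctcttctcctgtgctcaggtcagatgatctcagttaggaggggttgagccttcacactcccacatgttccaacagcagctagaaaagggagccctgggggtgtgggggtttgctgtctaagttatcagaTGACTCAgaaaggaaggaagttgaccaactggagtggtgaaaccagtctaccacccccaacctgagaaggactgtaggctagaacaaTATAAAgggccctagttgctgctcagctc
Lor, chr3:92083143-92083392, minus strand: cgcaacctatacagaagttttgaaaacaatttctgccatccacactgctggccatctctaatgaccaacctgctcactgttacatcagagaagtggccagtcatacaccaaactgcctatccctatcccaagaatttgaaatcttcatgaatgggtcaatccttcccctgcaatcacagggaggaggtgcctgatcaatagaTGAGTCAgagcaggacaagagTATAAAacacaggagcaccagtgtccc
The windows were searched on both strands for 5 motifs, and no marked match overlapped another motif. RefSeq promoters were found for 8 of the 10 genes, with 10 start sites between them, and none was given for Kprp and Crct1. Tgm1 and Cdsn had 2 start sites each. A gene counted when any of its windows had a match, whereas the shares of all windows count each window singly. The AP-1 consensus TGANTCA was present before 2 genes, Ivl (starting 116 bases before the start site) and Lor (48 bases before it), and in 6.75% of all 32851 windows of this length. The TATA box, searched as TATAAA, was present before 3 genes, Tgm3 (28 bases before the start), Ivl (29 bases) and Lor (27 bases), and in 12.4% of all windows. The CACCC box, searched by those letters, was present before 6 genes (Tgm1, Tgm3, Casp14, Asprv1, Ivl and Cdsn) against 52% of all windows. Cdsn had it before 1 of its 2 start sites. The NF-kB consensus was matched before 1 of the 8 genes, Asprv1 (161 bases before the start), and in 7.25% of all windows. Another NF-kB-type pattern, searched first and replaced after its result was seen, was matched before 0 of the 8 genes and in 1.41% of windows. Ivl and Lor thus share both marked motifs. Their differences with IMQ in f/f skin were 0.94 and -0.18, and a link between motifs and differences was not tested. These matches are descriptions of letters, not of binding.

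The tissue labels were checked against marker genes. Keratins of basal cells (Krt5 and Krt14) and of suprabasal cells (Krt1 and Krt10) lay between 11.90 and 13.12 on all 4 arrays, against a floor of 6.93 to 6.98, the median of the named genes on each array. Traf6 itself, read by 1 probe set, was at 9.51 and 9.30 on the f/f arrays (untreated, then IMQ) and at 9.65 and 9.35 on those labelled EKO, where it was thus not lower. No source used here places its probes within or outside the deletion, so its level checks nothing. Markers of other cells of the ear differed between the arrays as well. The mean level of 7 skeletal muscle markers was 11.17 and 10.19 in f/f and 10.94 and 10.63 in EKO skin, and that of 6 adipocyte markers was 10.35, 8.77, 9.82 and 9.30 in this order of arrays. The mean of 6 basal keratinocyte markers was 10.93, 11.30, 11.18 and 11.19. With IMQ in f/f 4 of these 6 were higher, and they ranged from Trp63 (-0.10) to Krt14 (0.73). That of 5 suprabasal keratinocyte markers was 12.09, 12.15, 12.34 and 12.39, with a range in the same comparison from Krt77 (-0.94) to Krt1 (0.89). Only the basal list was used for centring below. The cell cycle and stress keratinocyte lists had the array order of the transglutaminases. The mean of 7 cell cycle genes was 7.20, 9.22, 7.87 and 8.84. With IMQ in f/f 7 of 7 were past 2-fold upward, against 3.82% of all genes. Among them Bub1 (5.38) and Plk1 (6.96) lay below the floor on the untreated f/f array. They passed it through the IMQ array, where they were high. The mean of 6 stress and wound keratinocyte genes was 8.38, 11.66, 8.76 and 10.83, and 6 of 6 were past 2-fold upward in f/f. Gjb6 (5.94 untreated in f/f) likewise passed the floor through the IMQ array, so both counts favour upward differences. The part of all these lists in the differences below was not tested, and in whole ear fewer cells of a type and less RNA per cell cannot be told apart.

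The transglutaminases were higher with IMQ in both genotypes, and by more in f/f as deposited, although Tgm5 stood at 0.94 in both with basal keratinocyte centring. Tgm1, the membrane-bound transglutaminase whose loss causes lamellar ichthyosis, was at 9.66 on the untreated and 10.90 on the IMQ array of f/f, and at 10.14 and 10.39 on those of EKO. Its highest array was f/f IMQ and its lowest f/f untreated, with both EKO arrays between them. It was thus 2.36-fold higher with IMQ in f/f skin and 1.18-fold higher in EKO skin. Tgm3, an enzyme of epidermis and hair follicle that is activated by proteolysis, was at 8.91, 10.52, 9.36 and 9.87 in that order of groups. The order of its arrays was that of Tgm1, and its difference with IMQ was 3.07-fold in f/f and 1.42-fold in EKO. Tgm5, whose loss causes peeling of the skin surface, was at 7.64, 8.95, 7.83 and 8.79. Its array order was again the same, but its treated arrays lay only 0.16 apart, and its IMQ difference was 2.48-fold in f/f and 1.95-fold in EKO.

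In f/f skin, 134 of 10548 genes at or above the floor had a larger IMQ difference than Tgm3, 237 a larger one than Tgm5 and 262 a larger one than Tgm1. In EKO skin, 74 of 10285 genes had a larger difference than Tgm5, 354 than Tgm3 and 1177 than Tgm1. Tgm1 and Tgm3 therefore stood lower in the order of genes in EKO than in f/f, and Tgm5 did not. The EKO difference came to 19.6% of the f/f difference on the log2 scale for Tgm1, 31.0% for Tgm3 and 73.3% for Tgm5. Over all 403 genes past 2-fold in f/f (3.82% of those at or above the floor), the median of this share was 42.6%, with quartiles of 31.8% and 53.2%. These genes were selected on the f/f difference, which pulls the share down.

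**Figure D1:**
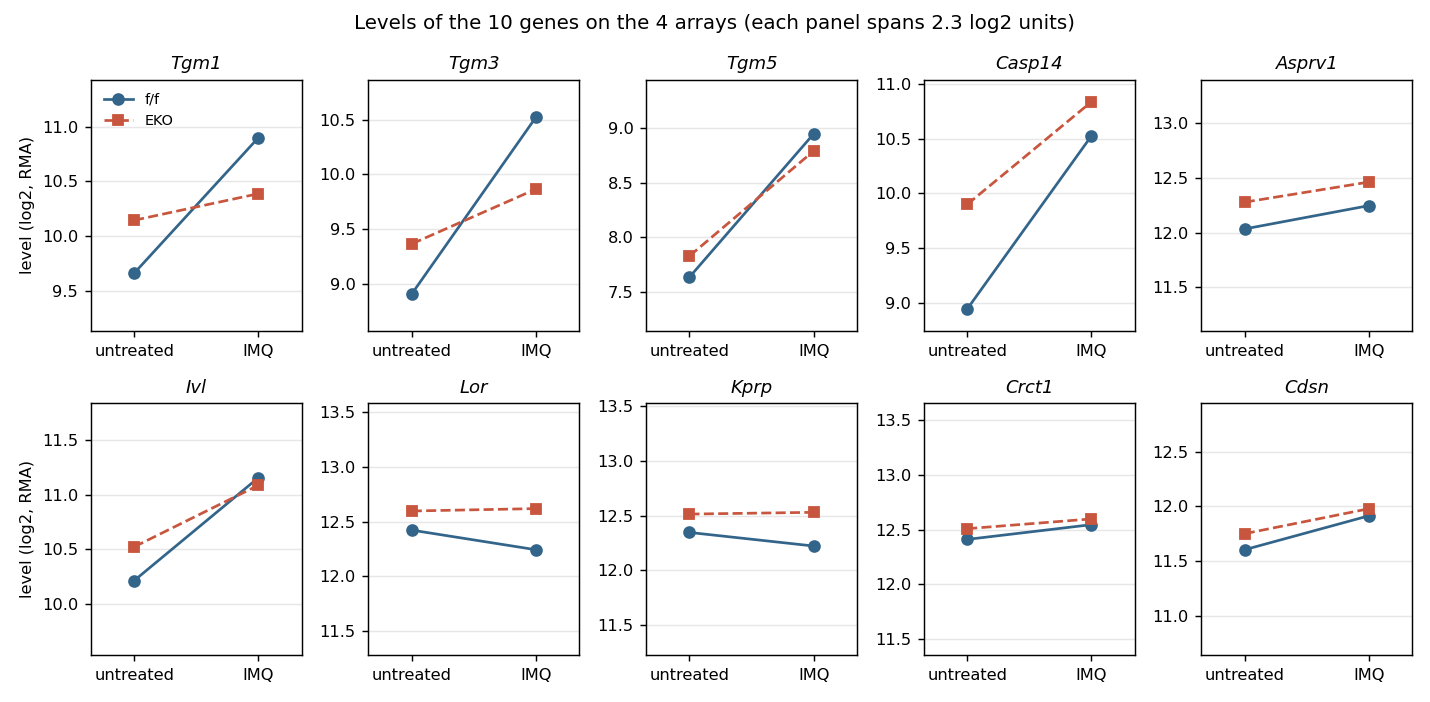
Each panel plots the log2 level of 1 gene (vertical axis) on the untreated and the IMQ array of f/f (circles, solid line) and EKO skin (squares, dashed line); each point is 1 array, and every panel spans the same number of log2 units around its own centre. The lines of Tgm1, Tgm3, Tgm5 and Ivl cross, with EKO above f/f untreated and below it with IMQ, whereas EKO lies above f/f on both pairs of arrays for the other 6 genes.

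Tgm2 and F13a1, the only other members of the transglutaminase family that reached the floor, did not share this pattern. Tgm2, the tissue transglutaminase of many cell types, had IMQ differences of 0.16 (f/f) and -0.14 (EKO). F13a1, the coagulation factor XIII subunit of macrophages and platelets, was lower with IMQ by 1.20 on the log2 scale in f/f (9.51 to 8.31) and differed by -0.47 in EKO (9.23 to 8.76). Tgm4, Tgm6, Tgm7 and Epb42 stayed below the floor on all 4 arrays. Of the 6 family members outside the chosen genes, 0 reached 2-fold upward and 1 downward in f/f, against 3.82% and 2.63% of all genes. Only Tgm2 and F13a1 could be counted, and the median of the 6 (-0.06) rests mostly on genes below the floor. Tgm5 lies between Epb42 and Tgm7 in the RefSeq order of chromosome 2, and both neighbours differed by less than 0.2 in each genotype (-0.10 and -0.19 in f/f, 0.02 and -0.12 in EKO).

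Of the proteases, Casp14 was higher with IMQ and Asprv1 differed little. Casp14, a caspase of cornifying cells that takes part in filaggrin breakdown, was at 8.94 on the untreated and 10.52 on the IMQ array of f/f, and at 9.90 and 10.84 on those of EKO. Untreated EKO skin stood 1.94-fold above untreated f/f skin, and the highest array was EKO IMQ. The IMQ difference was 2.99-fold in f/f, where 145 genes had a larger one, and 1.92-fold in EKO, where 80 did, so that the EKO difference was 59.3% of that in f/f. Asprv1, an aspartic protease that cuts the linker of profilaggrin, was at 12.03, 12.25, 12.28 and 12.46 in the same order. Its 4 arrays spanned 0.43, and IMQ differences of 0.21 in f/f and 0.18 in EKO were close to each other.

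Tgm3 and Casp14 are also made in the inner root sheath of hair follicles, so its markers are set beside them. The mean level of 8 inner root sheath genes went from 8.10 untreated to 6.84 with IMQ in f/f, and from 7.24 to 7.99 in EKO, and 2 of them (Krt26 and Krt28) stayed below the floor on all arrays. All 8 were lower with IMQ in f/f and lower in EKO than in f/f skin without treatment, where Tgm3 and Casp14 were higher. In EKO all 8 were higher with IMQ, at a median of 0.77.

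Among the envelope proteins, Ivl was higher with IMQ and the other 3 differed by less than 0.2. Ivl, which encodes involucrin, was at 10.22, 11.16, 10.52 and 11.09 on the untreated and IMQ arrays of f/f and then of EKO. Its IMQ arrays lay 0.07 apart and above both untreated arrays, with an IMQ difference of 1.92-fold in f/f and 1.48-fold in EKO. Lor, which encodes the glycine-rich loricrin, was at 12.42, 12.24, 12.60 and 12.62. Its f/f IMQ array was the lowest, 1.13-fold below f/f untreated, and its EKO arrays differed by 0.02. Kprp, a proline-rich keratinocyte protein gene, was at 12.35, 12.22, 12.51 and 12.53, again with f/f IMQ as the lowest array. Crct1, a cysteine-rich protein gene of the same chromosomal cluster, was at 12.41, 12.55, 12.51 and 12.60, the narrowest span of the 10 genes at 0.19. Cdsn, which encodes the adhesive corneodesmosin, was at 11.60, 11.91, 11.75 and 11.98, with IMQ differences of 0.31 in f/f and 0.23 in EKO.

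Lor, Kprp, Crct1 and Asprv1 had levels of at least 12 on the untreated arrays, near the top of a signal range that ended at 13.8. How genes of that height stood depends on which array sets the height, the counts include these 4 genes, and the levels of 11 and 12 used here were chosen after values were seen. Of 82 genes at or above 12 on the untreated f/f array, 0 were past 2-fold upward with IMQ in f/f and 1 downward, the largest positive difference being 0.73 (Krt14). At or above 11, with Cdsn also included, it was 5 of 300 upward (1.67%) and 15 downward. When either f/f array could reach 12, which also admits genes that are high with IMQ alone, 17 of 114 (14.9%) were past 2-fold upward, up to 4.69 for the wound keratin gene Krt16. In EKO 0 of 86 genes at or above 12 untreated differed 2-fold in either direction. Differences past 2-fold were thus recorded for genes that ended at this height, and upward ones for none that started at or above 12. How far the signal of the 4 genes was compressed was not tested.

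**Figure D2:**
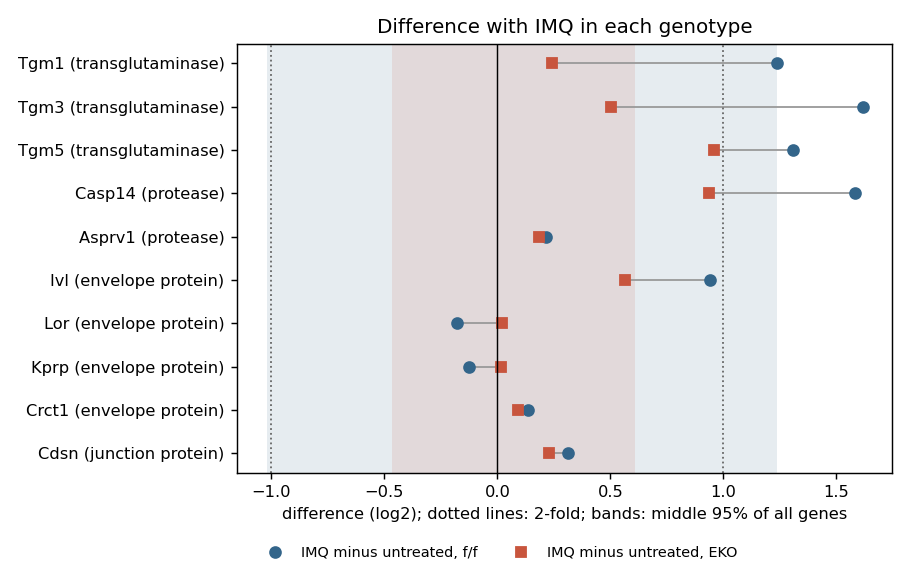
For each gene and its role, the horizontal axis gives the log2 difference between the IMQ and the untreated array in f/f (circles) and in EKO (squares); shaded bands hold the middle 95% of all genes at or above the floor in f/f (-1.02 to 1.24) and in EKO (-0.47 to 0.61), and dotted lines mark 2-fold. Tgm1, Tgm3, Tgm5 and Casp14 lie past the 2-fold line in f/f and none does in EKO, where Tgm5 (0.96) and Casp14 (0.94) lie beyond the EKO band.

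Counted over the list, IMQ in f/f gave 4 of the 10 genes a difference of 2-fold or more upward and 0 downward, against 3.82% and 2.63% of all genes. The list was chosen with earlier results of these data known, so this contrast is a description and not a test. With basal keratinocyte centring the upward count was 2 and the median 0.26, while the median of all genes was -0.36. Shares of all genes were not computed on that scale. At 1.5-fold and as deposited the upward count was 5 with Ivl added, against 10.2%. The median difference of the 10 genes as deposited was 0.63, and that of all genes 0.01. In EKO 0 of the 10 genes reached 2-fold either way, against 0.671% of 10285 genes upward and 0.0972% downward, while 2 (Tgm5 and Casp14) were past 1.5-fold upward against 2.66%. Their median was 0.24 against -0.01 for all genes. The 3 transglutaminases had a median of 1.31 in f/f and 0.50 in EKO, and the 4 envelope proteins 0.01 and 0.06. These groups also differed in starting level. Lor, Kprp and Crct1 started at or above 12, where 0 of 82 genes were past 2-fold upward in f/f. Ivl, which started at 10.22 in f/f, stood at 0.94 there. The part of the starting level in these medians was not tested. As deposited, 8 of the 10 genes were above 0 in f/f and all 10 in EKO, against 50.6% and 47.1% of all genes. With basal keratinocyte centring 5 of the 10 were above 0 in f/f, since Asprv1 (-0.15), Crct1 (-0.23) and Cdsn (-0.056) turned sign, and 9 were above 0 in EKO. After quantile normalization Kprp (-0.01), and after cyclic loess Lor and Kprp (-0.04 each), lay below 0 in EKO.

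A model that averages each factor over the other can be fitted to 4 arrays, although it weighs the effect against the genotype-by-IMQ difference on 1 residual degree of freedom. With limma and Benjamini-Hochberg adjustment over 10646 genes, 0 genes passed an adjusted p of 0.05 for IMQ and 0 for genotype (0% each way), while 2808 and 344 had an unadjusted p under 0.05. None of the 10 genes passed. The averaged IMQ difference was 1.14 ± 0.13 (SE, 2 arrays per level, limma adjusted p = 0.162) for Tgm5 and 1.26 ± 0.19 (limma adjusted p = 0.162) for Casp14. For Tgm1, whose IMQ differences were the least alike of the transglutaminases in proportion, it was 0.74 ± 0.27 (limma adjusted p = 0.189).

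Without treatment all 10 genes stood higher in EKO skin, by 0.10 (Crct1) to 0.96 (Casp14), although 6 of them (Tgm5, Asprv1, Lor, Kprp, Crct1 and Cdsn) lay below 0 when each array was centred on its basal keratinocyte markers. Casp14 led at 1.94-fold, with 7 of 10200 genes showing a larger difference. Tgm1 was 1.40-fold and Tgm3 1.37-fold higher, and 135 and 148 genes exceeded them. The median of the 10 genes was 0.22, against 0.02 for all genes, of which 55.1% were above 0. With basal keratinocyte centring these medians were -0.027 and -0.23. None of the 10 reached 2-fold, as did 0.0686% of all genes toward higher in EKO and 0.324% toward lower, and only Casp14 was past 1.5-fold, as were 0.647% of all genes in that direction.

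With IMQ the order of the genotypes depended on the gene. Tgm3 (1.58-fold), Tgm1 (1.43-fold), Tgm5 (1.11-fold) and Ivl (1.05-fold) were lower in EKO, while Lor (1.30-fold), Casp14 (1.24-fold), Kprp (1.24-fold), Asprv1 (1.16-fold), Cdsn (1.05-fold) and Crct1 (1.04-fold) were higher. Only 212 of 10282 genes lay further toward lower in EKO than Tgm3, and 346 further than Tgm1. The median of the 10 genes was 0.06, with 0 of them past 2-fold, against 0.418% of all genes toward higher in EKO and 0.875% toward lower. Past 1.5-fold toward lower there was 1 gene of the 10, Tgm3, against 2.61% of all genes. The sign of Ivl turned to 0.03 with basal keratinocyte centring. Each genotype comparison shares its arrays with the IMQ comparisons, so these values restate the levels given above from the other side.

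**Figure D3:**
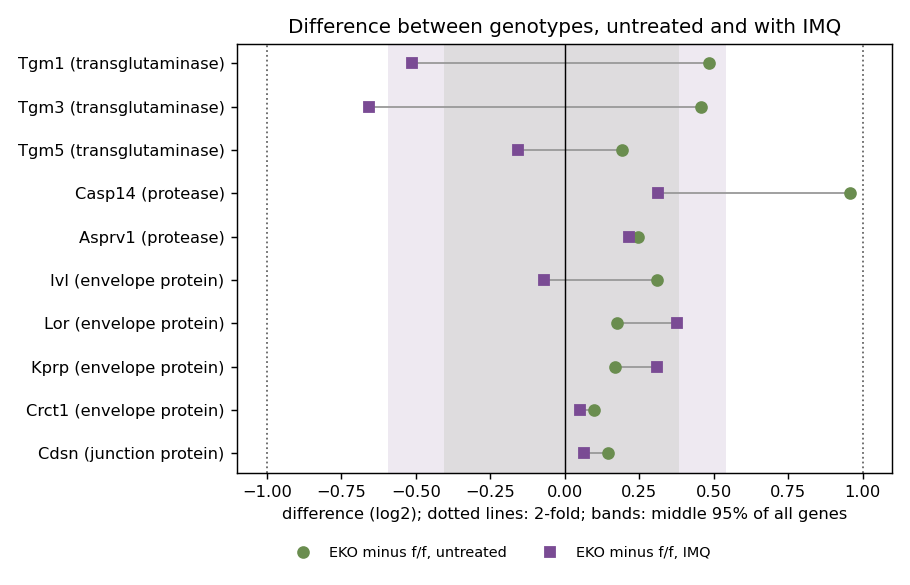
The horizontal axis gives the log2 difference EKO minus f/f without treatment (circles) and with IMQ (squares) for each of the 10 genes; shaded bands hold the middle 95% of all genes, from -0.41 to 0.38 untreated and from -0.60 to 0.54 with IMQ. All 10 circles lie to the right of 0 on this scale (6 would not with basal keratinocyte centring), and 3 of them (Casp14, Tgm1 and Tgm3) lie right of the untreated band, while with IMQ 4 genes lie left of 0 and Tgm3 lies left of its band.

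The difference of the IMQ differences (EKO minus f/f) was -1.11 for Tgm3, -0.996 for Tgm1, -0.64 for Casp14, -0.38 for Ivl and -0.35 for Tgm5. Tgm3 alone reached 2-fold (2.17-fold smaller in EKO), with Tgm1 just short of it at 1.99-fold and Casp14 next at 1.56-fold. This count depended on the scaling, as 2 genes were past 2-fold with median centring (Tgm1 at -1.04) and 0 with basal keratinocyte centring (Tgm3 at -0.77). On the latter scale the median of all genes was 0.33. Of 10646 genes, 1.18% were past 2-fold toward smaller in EKO and 1.06% toward larger, and past 1.5-fold toward smaller were 3 of the 10 genes against 4.63% of all. Of all genes, 93 had a more negative value than Tgm3 and 128 than Tgm1. Cdsn (-0.08), Crct1 (-0.05) and Asprv1 (-0.03) were near 0, with signs that turned after basal keratinocyte centring and, for all 3 after quantile normalization and for Asprv1 and Crct1 after cyclic loess, there too. Lor (0.20) and Kprp (0.14) were positive. No test of this quantity can be made on single arrays.

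Centring on the basal keratinocyte markers shifted all genes alike, by -0.37 for IMQ in f/f, -0.02 for IMQ in EKO and -0.25 for untreated EKO against f/f. The medians of all genes were then -0.36, -0.03 and -0.23, and the place of each gene among all genes did not change. On that scale Tgm3 (1.25) and Casp14 (1.22) remained at least 2-fold higher with IMQ in f/f, Tgm5 (0.94) and Tgm1 (0.87) did not, and Lor stood at -0.55 and Kprp at -0.49. The IMQ difference of Tgm5 was then 0.94 in both genotypes, and that of Ivl 0.58 in f/f and 0.55 in EKO. For Tgm1 and Tgm3 the EKO difference (0.23 and 0.48) was still smaller than that in f/f.

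Lor, Ivl, Kprp and Crct1 lie in this order on chromosome 3, within the epidermal differentiation complex, a cluster of envelope protein genes. From Lor to Crct1 the RefSeq order holds 42 protein-coding genes, 37 of which were measured. Of the 28 other genes there that passed the floor in f/f skin, 11 reached 2-fold upward with IMQ and 1 downward. None of the 4 genes described here did, and of all genes 3.82% did upward and 2.63% downward. Of these 11, only Sprr2d, Sprr1b and Lce3c were above the floor untreated. The others passed it through the IMQ array alone, where they were high, so the count favours upward differences. Crct1 (0.13) was flanked by Lce3f, at 3.47 in f/f, where its untreated level lay below the floor; both its EKO arrays lay below the floor. Lor was flanked by Pglyrp3 (2.04 in f/f, 0.70 in EKO) on one side and the hair gene Prr9 (-2.06 and 0.31) on the other. Kprp (-0.12) lay between Lce1k (0.33) and Lce1l (-0.16). Ivl (0.94) lay beyond Sprr4 (0.23) and Sprr1a (0.95). Sprr2, Lce1 and Lce3 genes have near-identical relatives, and a probe set may read more than its own gene. In EKO skin 7 of the 24 other genes that passed the floor were at least 2-fold higher, against 0.671% of all genes. Again only Sprr2d, Sprr1b and Lce3c among them were above the floor untreated.

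**Figure D4:**
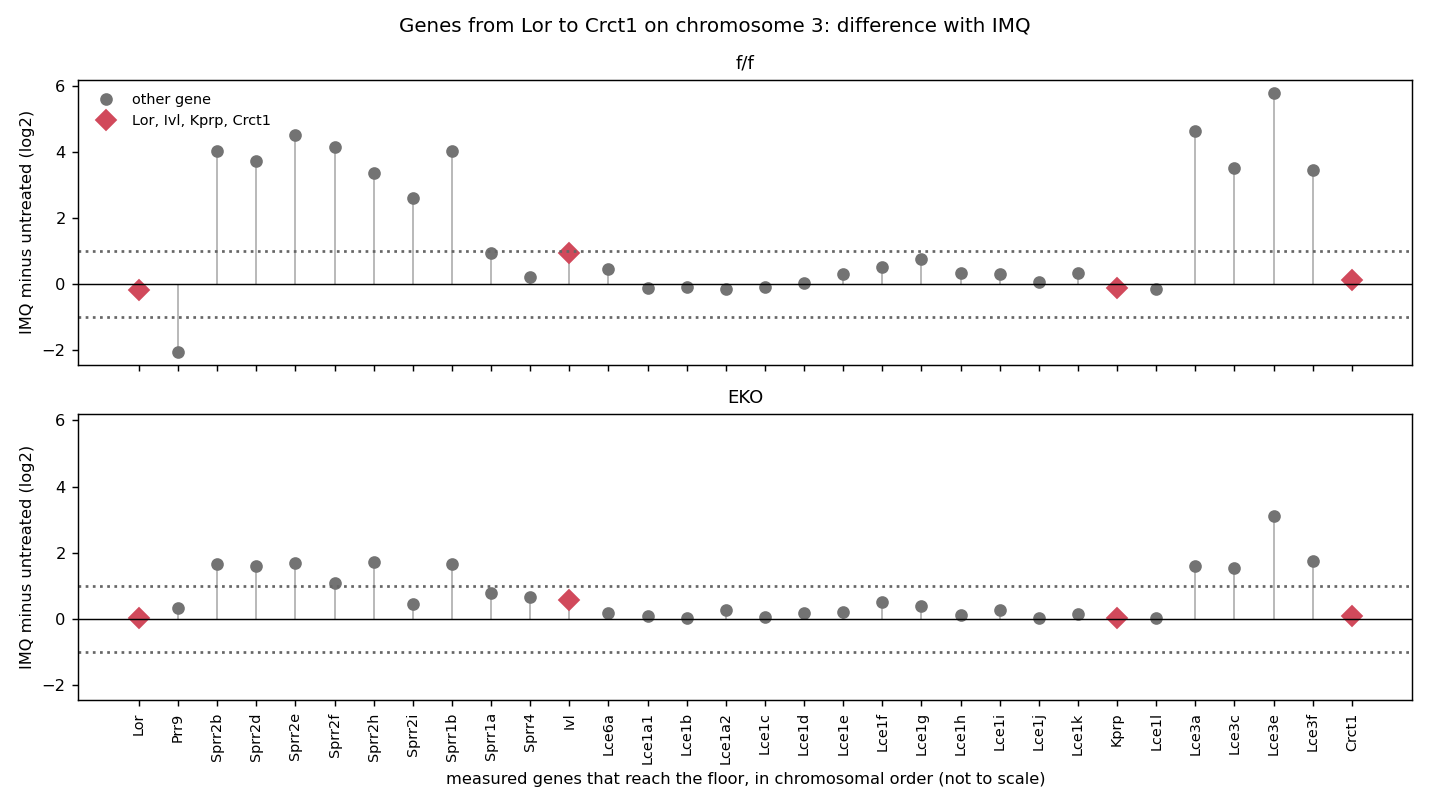
Measured genes from Lor to Crct1 that reach the floor on any array are drawn in their order on chromosome 3, not to scale, with the log2 difference between IMQ and untreated on the vertical axis for f/f (top) and EKO (bottom); diamonds are Lor, Ivl, Kprp and Crct1, grey points the other genes and dotted lines 2-fold. The 4 diamonds lie inside the 2-fold lines in both panels, while the other genes reach up to 5.80 (Lce3e) in f/f.

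Outside the chromosome 3 cluster, the neighbours differed from gene to gene. Cdsn (0.31 in f/f) lies next to Psors1c2, which stood at 1.55 in f/f and 0.57 in EKO. Asprv1 lies next to Mxd1, a MYC antagonist of differentiating cells, at 0.64 in f/f and 0.23 in EKO. Tgm1 lies between Tinf2 (0.23) and Rabggta (0.33), far below its own difference of 1.24, and both neighbours of Casp14 stayed below the floor.

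Genes with related tasks were examined from lists chosen with earlier results known. Of 31 other measured envelope proteins, 6 reached 2-fold upward and 2 downward with IMQ in f/f (median 0.18). The higher ones were led by Lce3e (5.80), Lce3a (4.63), Sprr1b (4.04) and Rptn (3.56). The untreated f/f levels of Lce3e (4.36), Lce3a (5.80) and Rptn (6.15) lay below the floor of 6.98, so the sizes and order of their differences are imprecise. The lower ones were Tchh (-1.30) and Crnn (-1.11), the latter below the floor with IMQ. In EKO 6 were at least 2-fold higher, led by Lce3e (3.11) and Rptn (2.80), both below the floor when untreated. Tchh, a gene of the inner root sheath, was among these 6 at 1.06, the opposite direction to f/f. The late envelope genes of the Lce1 group ranged in f/f from Lce1l (-0.16) and Lce1a2 (-0.15) to Lce1f (0.52) and Lce1g (0.78). Evpl, an early scaffold protein gene, stood at 0.66 in f/f and 0.36 in EKO.

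Of 29 corneocyte proteases and inhibitors, 7 reached 2-fold upward in f/f and 4 in EKO, and 0 downward in either (medians 0.57 and 0.28). Klk6 (3.48), Klk13 (3.47), Prss27 (3.06) and Klk10 (2.13) led in f/f, with Klk13 below the floor when untreated. Blmh, the hydrolase that acts after Casp14 in filaggrin breakdown, stood at 1.40 in f/f and 0.69 in EKO. Of 12 desmosome genes, 3 were at least 2-fold higher in f/f, namely Dsc2 (1.51, below the floor when untreated), Dsg3 (1.40) and Dsg1b (1.14), and 0 in EKO, where Dsg1b stood at 0.42 and Dsc2 lay below the floor on both arrays.

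Of 27 transcription factors of epidermal differentiation, 3 reached 2-fold upward in f/f, namely the AP-1 subunits Fosl1 (1.75) and Junb (1.01) and the repressor Ovol1 (1.11). None did so in EKO, where the largest difference was again that of Fosl1 (0.53), while Grhl3 stood at 0.99 in f/f and 0.23 in EKO, and Klf4 at 0.20 and 0.04. Of 20 barrier lipid enzymes, 2 reached 2-fold upward in f/f, the cholesterol sulfotransferase Sult2b1 (1.68) and the ceramide synthase Cers3 (1.03), and 0 in EKO, with medians of 0.65 and 0.27. The lists overlap in time and place of expression with the 10 genes, and no list was tested against another.

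**Figure D5:**
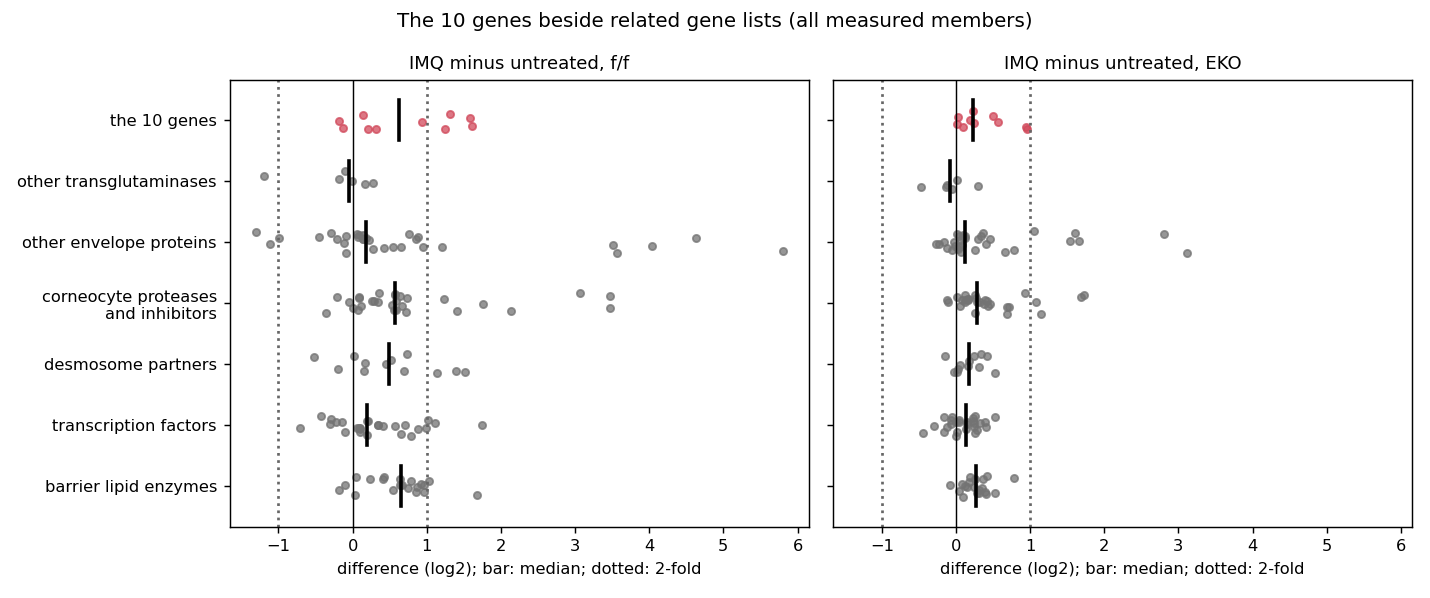
Each point is 1 measured gene, placed by its log2 difference between IMQ and untreated in f/f (left) or EKO (right), for the 10 genes (top row) and the other members of 6 related lists; the vertical position within a row is arbitrary, black bars are medians and dotted lines 2-fold. The medians of the 10 genes (0.63 and 0.24) lie near those of the barrier lipid enzymes (0.65 and 0.27). Those of the corneocyte proteases and inhibitors (0.57 and 0.28) are near as well. In f/f none of the 10 lies between Cdsn (0.31) and Ivl (0.94), so their median describes no single gene. The widest spread is among the other envelope proteins.

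The 10 genes fell into profiles that were more and less alike over the 4 arrays. Likeness was measured as the Euclidean distance between log2 profiles centred on their own mean, where 0 is an identical shape. Lor and Kprp were the closest pair of the 10 (0.05), followed by Asprv1 with Cdsn (0.15) and Crct1 with Cdsn (0.16). Tgm1 and Tgm3 were 0.33 apart, and Casp14 and Lor were the furthest apart (1.45). Among 10292 other named genes, the 3 nearest to Tgm1 were Flvcr2 (0.06), Srm (0.09) and Ppard (0.09), and those nearest to Tgm3 were Cd44 (0.07), Crabp2 (0.07) and Smc2 (0.08). Casp14 had no gene within 0.2, the nearest being Klk8 (0.23), whereas 3068 genes lay within 0.2 of Crct1. The nearest to Tgm5 were Ska3 (0.09), Nek2 (0.10) and Sox7 (0.13), and those nearest to Ivl were Mcm10 (0.07), Ttk (0.07) and Psrc1 (0.08). For Lor they were Zfp362 (0.01), Ranbp10 (0.03) and Mlana (0.04), and for Kprp Wdtc1 (0.02), Arhgef37 (0.03) and Gramd1c (0.03). Asprv1 was nearest to Barx2 (0.02), Klf3 (0.02) and Esrp1 (0.04), Crct1 to Bag4 (0.005), Tcf25 (0.01) and Cdipt (0.01), and Cdsn to Megf9 (0.007), Lrrc1 (0.01) and Tkt (0.02). With 4 arrays a short distance is common among genes of small differences, as the 3068 near Crct1 show.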

How the data were processed

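RNA of 4 ear skin samples was read on arrays. The deposited values are log2 levels of 35556 probe sets made with RMA by the authors, per the submitters' processing notes; no source used here gives its version. RMA equalises the arrays' distributions of probe intensities, which would hide a shift of most genes. The deposited levels were not exactly equal in distribution, with medians of 6.517 to 6.571. The number of arrays limits the precision. Probe sets with 1 symbol in the platform annotation (21789) were used, the one with the highest mean standing for each gene; all 10 genes were found under the same symbol in RefSeq (GRCm38.p6). A gene counted when it differed at least 2-fold and reached the floor, the array's median of named genes, on an array compared. All 10 did so on every array. The members and lists were chosen with earlier results of these data known. Named genes are the 10, up to 4 genes at least 2-fold different per list (or the largest difference), the 3 nearest profiles (unnamed gene models left out), and, outside this rule, chromosomal neighbours and comparison genes chosen after their values were seen. limma 3.58.1 (R 4.3.3, with lmFit and eBayes with trend) gave averaged effects. Its trial on simulated data used equal noise for all genes and no genotype-by-IMQ difference, so it does not cover the setting of these arrays. Other steps used Python 3.11.15 with pandas 2.3.3. Alternatives were other scalings, floors, probe set rules, a 1.5-fold threshold and no trend.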

Additional observations from a re-analysis of the deposited data

Results flagged for a closer look

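For 4 genes the genotype difference pointed one way without treatment and the other way with IMQ, each direction resting on 1 pair of arrays. Tgm1 was higher in EKO by 0.48 untreated and at -0.51 with IMQ, a difference of differences of -0.996. Tgm3 was at 0.46 and -0.66, a difference of -1.11. Tgm5 was at 0.19 and -0.16, a difference of -0.35. Ivl was at 0.31 and -0.07, a difference of -0.38. With basal keratinocyte centring the turn was lost for Tgm5 (-0.05 in both) and Ivl (0.06 and 0.03). For 2 further genes the IMQ difference pointed opposite ways in the genotypes. Lor was at -0.18 in f/f and 0.02 in EKO, a difference of 0.20, and Kprp at -0.12 and 0.02, a difference of 0.14; the EKO values of 0.02 turned sign under some scalings. None of these differences between groups was tested, since no group has a second array.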

How the results depend on the processing

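The number of arrays limits every value here, and results counted as unmoved kept a median within 0.1 (log2) or a count within 1.5 times. Of the 45 values recomputed under another scaling or threshold, limma counts aside, 33 did so. These include the 2-fold counts for IMQ in EKO and for both genotype comparisons, which were 0 as deposited and stayed 0 under every scaling. The median of the 10 genes with IMQ in f/f became 0.51 after quantile normalization. Median centring put 2 genes (Tgm1 and Tgm3) past 2-fold in the difference of the IMQ differences, in place of 1. Shares of all genes were not computed under the other scalings. At 1.5-fold, 5 genes counted as higher with IMQ in f/f (10.2% of all genes did), 2 in EKO (2.66%) and 1 as higher in untreated EKO (0.647%). As lower there counted 1 in EKO with IMQ (2.61%) and 3 in the difference of differences (4.63%). Centring on basal keratinocyte markers, chosen after seeing the data, left 2 genes past 2-fold in f/f (median 0.26) and 0 in the difference of differences. Its median then reversed to 0.13, that of untreated EKO against f/f reversed to -0.027, and that of EKO against f/f with IMQ became 0.16. All genes moved too, to medians of 0.33, -0.23 and 0.10 in these 3 comparisons. These moves follow from the shift of the markers themselves. The floor and the probe set rule moved no value, because each gene has 1 probe set and all lie above the floor, and limma called 0 of the 10 genes under each setting run. No paired analysis was possible because each group has 1 array and the labels give no replicate numbers.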
